A study of Mus musculus with 3 samples.

Results

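The cells described here were the tdTomato-sorted cells of the mouse larynx that carried transcripts of cell division genes, called cycling below. Whether each of them was dividing was not tested. A barcode was counted as cycling when it carried a unique molecular identifier (UMI, 1 captured transcript) of at least 4 of the 5 genes *Mki67*, *Top2a*, *Cdk1*, *Birc5* and *Cenpf*. Before that, a barcode needed 1000 to 40000 UMIs from 500 to 8000 genes, with mitochondrial UMIs at 8% or less, and must not hold UMIs of all of *Krt5*, *Ltf*, *Scgb3a1* and *Dcn*, genes of basal, gland and fibroblast cells. Of 60530 barcodes deposited, 41033 met these limits and 469 of them were cycling, 80 in library 1, 21 in library 2 and 368 in library 3. The values of the 5 genes chose the cells, so those genes are described below and were not tested.

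The libraries came from *Lrig1CreERT2/+; ROSA26CAG-LSL-tdTomato/+* mice on a C57BL/6 J background, in which Cre driven from 1 *Lrig1* allele turns on a red reporter after tamoxifen. The mice received 2 tamoxifen injections on consecutive days, and larynges were collected 1 day after recombination. Each of the 3 libraries was a separate pool of 10 larynges, 5 from males and 5 from females, and all 3 belonged to a single condition, so classes of cells inside each library were compared. The age of the mice was not given in the sources used here. tdTomato and Cre were absent from the counted genes, which leaves no check of the sort by its reporter, and because pools were sequenced, a library is the replicate and single animals cannot be told apart. In sums over cells, fewer cells of a type and less RNA per cell cannot be told apart.

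A dividing cell copies its DNA in S phase, passes through G2 and separates its chromosomes in M phase. Genes for DNA copying are switched on early by E2F factors, whereas genes for chromosome separation peak later under the B-Myb and FOXM1 factors together with the MuvB core. In resting cells the related DREAM complex holds many of these genes low. Stratified epithelia such as that of the vocal fold are renewed by division in basal and parabasal cells, which carry p63, the product of *Trp63*, and whose daughters turn on keratins such as *Krt13* as they move up.

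The promoters of 4 of the 5 selecting genes are printed because they hold the elements that such factors are known to use. They are the 250 bases before the start site in the RefSeq table (GRCm38.p6, a build other than that of the counts), 5′ to 3′ on the strand of the gene, and capitals mark the CHR letters TTTGAA or TTCGAA, the CCAAT box and the E2F core GCGCGAA or TTCGCGC, read on both strands. *Mki67* encodes the Ki-67 protein of the chromosome surface, *Top2a* the topoisomerase that untangles DNA, *Cdk1* the kinase that drives entry into mitosis, and *Cenpf* a kinetochore protein. In order they lie at chr7:135716380-135716629, chr11:99024190-99024439, chr10:69352913-69353162 and chr1:189688087-189688336, all on the minus strand.
Mki67: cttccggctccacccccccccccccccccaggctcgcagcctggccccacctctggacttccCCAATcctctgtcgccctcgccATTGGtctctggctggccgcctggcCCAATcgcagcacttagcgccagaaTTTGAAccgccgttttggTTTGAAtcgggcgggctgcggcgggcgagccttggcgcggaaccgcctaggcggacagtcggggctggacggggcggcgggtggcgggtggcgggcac
Top2a: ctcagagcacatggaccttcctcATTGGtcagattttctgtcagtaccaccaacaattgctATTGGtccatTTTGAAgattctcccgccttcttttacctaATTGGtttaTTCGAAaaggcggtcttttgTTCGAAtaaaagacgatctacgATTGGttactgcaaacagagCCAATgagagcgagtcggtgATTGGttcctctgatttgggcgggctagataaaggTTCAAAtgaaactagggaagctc
Cdk1: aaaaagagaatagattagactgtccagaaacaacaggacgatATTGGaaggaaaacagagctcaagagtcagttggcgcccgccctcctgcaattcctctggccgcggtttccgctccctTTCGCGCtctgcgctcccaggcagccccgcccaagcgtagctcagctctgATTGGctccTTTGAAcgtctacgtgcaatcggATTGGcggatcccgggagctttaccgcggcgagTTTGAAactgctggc
Cenpf: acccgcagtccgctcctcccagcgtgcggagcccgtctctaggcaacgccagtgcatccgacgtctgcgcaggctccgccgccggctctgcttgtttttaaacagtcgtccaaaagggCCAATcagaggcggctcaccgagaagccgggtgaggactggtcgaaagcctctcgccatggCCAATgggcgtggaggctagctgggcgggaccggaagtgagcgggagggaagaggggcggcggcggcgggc
CHR letters stood at −116 and −98 in *Mki67*, at −71 and −15 in *Cdk1* and at 4 places from −179 to −23 in *Top2a*, counted from the start site. In *Cenpf* the CHR lay at +3, outside the stretch shown. The promoter of *Birc5*, which encodes survivin, held none of these letters between 250 bases before and 50 after the start. Over windows of that length, 19.4% of 27025 promoters held a CHR and 7.70% held both a CHR and a CCAAT box. Of 52 promoters of G2 and M phase genes in the table, 38 (73.1%) held a CHR and 61.5% held both. Of 43 promoters of S phase genes, 8 (18.6%) held a CHR, and 16.3% held the E2F core against 1.59% of all promoters. These matches describe letters and not bound sites.

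*Mki67* was at 963, 1047 and 863 counts per 1e6 UMIs (CPM, summed over the cycling cells of libraries 1, 2 and 3), and it was detected in 98.8%, 100% and 98.9% of them. *Top2a* was at 1039, 1164 and 970 CPM, *Birc5* at 277, 327 and 315 CPM and *Cenpf* at 750, 1060 and 630 CPM. *Cdk1* was at 152, 157 and 177 CPM and was found in 75.0%, 76.2% and 78.8% of the cells. All 5 genes were detected in 289 of the 469 cells. Of the 180 cells with exactly 4, 103 lacked *Cdk1*, 42 *Cenpf*, 15 *Top2a*, 15 *Birc5* and 5 *Mki67*. Just outside the threshold lay 245 cells with 3 of the 5 genes (36, 14 and 195 per library), in which *Mki67* was at 166, 242 and 251 CPM and *Birc5* at 51.5, 19.4 and 36.5 CPM. A further 3647 cells held 1 and 579 held 2 of the 5 genes, and 36093 held none.

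Cycling cells were 0.638% of the kept cells in library 1 (95% Wilson interval 0.513% to 0.793%), 0.294% in library 2 (0.192% to 0.449%) and 1.72% in library 3 (1.56% to 1.91%). These intervals cover counting error only, and they did not overlap between libraries. Over the 3 libraries the share was 0.885% ± 0.746 (SD, n = 3). It was 1.35% when 3 of the 5 genes were enough, 0.539% when all 5 were asked for, and 0.571% with every cell drawn to 5000 UMIs. The cells were deep, with a median of 19846.5, 29364 and 23720 UMIs against 12260.5, 16803 and 13565 in non-cycling *Trp63*-positive cells, which held none of the 5 genes and a *Trp63* UMI. Between 20000 and 40000 UMIs, 2.92%, 0.754% and 5.45% of *Trp63*-positive cells were cycling, against 0.817%, 0.215% and 1.13% between 10000 and 20000 UMIs. Doublet scoring marked 32 of the 469, all in library 3, where it marked 8.70% of the cycling and 8.54% of all kept cells. Libraries shared 17, 84 and 52 barcodes among kept cells, none of them that of a cycling cell.

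Most cycling cells carried *Trp63*, a gene of basal cells in both stratified and airway epithelium. *Trp63* UMIs were found in 93.8%, 95.2% and 92.9% of them (75, 20 and 342 cells). *Krt13*, the keratin of non-cornified squamous cells above the basal layer, was found in 61.3%, 66.7% and 70.4%. *Nkx2-1*, the transcription factor of the lower airway and submucosal gland epithelium, was found in 22.5%, 28.6% and 28.0%. *Col1a2* (fibroblasts) was found in 3.75%, 0% and 4.08%, and *Pax7* (muscle satellite cells) in 0%, 4.76% and 2.72%. Endothelial barcodes, which should lack both genes, gave *Col1a2* in 4.09%, 0% and 4.0% and *Pax7* in 1.42%, 0% and 0% (563, 29 and 50 barcodes, median 7436, 5950 and 5111 UMIs), so the *Col1a2* shares lay at this background.

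Depth bears on these shares, so each cell was also drawn to 5000 UMIs. *Krt13* was then found in 47.4% ± 2.24 of cycling cells and in 16.1% ± 4.24 of non-cycling *Trp63*-positive cells, with no overlap between the 3 libraries of each class (SD, n = 3). *Nkx2-1* was found in 13.5% ± 1.79 against 25.8% ± 5.73 and *Lrig1* in 20.4% ± 4.26 against 34.0% ± 2.57, again without overlap. Endothelial barcodes, which should lack *Trp63*, *Krt13* and *Nkx2-1*, gave *Trp63* in 16.1% and *Nkx2-1* in 2.78% (means of 3 libraries) when drawn to the same depth (394, 22 and 26 barcodes, with median UMIs of 9941, 7650.5 and 11132.5 before drawing). *Krt13* was found in 5.84%, 18.2% and 11.5% of them, where libraries 2 and 3 rest on 4 and 3 barcodes, in 16.0%, 11.9% and 20.4% of the non-cycling *Trp63*-positive cells and in 47.9%, 45.0% and 49.4% of the cycling cells. The share of the cycling cells was higher than this background in each library, with 95% Wilson intervals that overlapped in library 2. That of the non-cycling cells was higher in libraries 1 and 3, with intervals apart in library 1 alone. These intervals, too, cover counting error within a pool only. No such background was at hand for *Lrig1*, since the cells were sorted on an *Lrig1*-driven reporter.

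**Figure D1:**
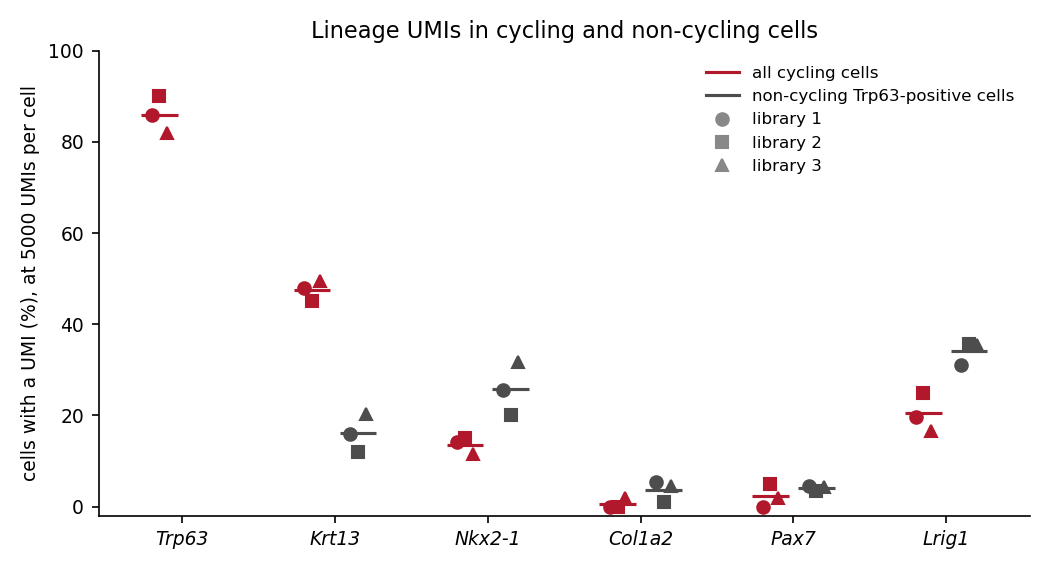
Percent of cells with a UMI of each lineage gene (y axis) with every cell drawn to 5000 UMIs, for all cycling cells (red) and non-cycling *Trp63*-positive cells (grey), 1 symbol per library and a bar at the mean of 3 libraries; *Trp63* is shown for cycling cells alone. *Krt13* stood higher and *Nkx2-1* and *Lrig1* lower in the cycling cells of all 3 libraries.

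By combination of the 5 lineage genes at full depth, 217 of the 469 cells held *Trp63* and *Krt13*, 84 held *Trp63* alone, 69 held *Trp63*, *Krt13* and *Nkx2-1*, and 39 held *Trp63* and *Nkx2-1*. A further 15 held *Krt13* alone and 8 held none of the 5. *Pax7* alone was seen in 1 cell, in library 2, of 639 cells there with *Pax7* and neither *Trp63* nor *Col1a2*, which is 0.156% (95% Wilson interval 0.0276% to 0.881%). No cycling cell had a *Col1a2* UMI without *Trp63* or *Pax7*. Cells of that kind numbered 2107, 417 and 1806 per library, which allows a cycling share of up to 0.142%, 0.719% and 0.166% of cells so defined (3 cells over their number; 95% Wilson upper bounds 0.182%, 0.913% and 0.212%). This is no limit for fibroblasts as a whole, since barcodes of other types also gave *Trp63* UMIs (20.6%, 6.90% and 22.0% of endothelial barcodes at full depth) and 11 cycling cells, all with *Trp63*, held at least 3 fibroblast markers. For comparison, 1.18%, 0.419% and 2.15% of *Trp63*-positive cells were cycling, and 0.0807%, 0.0423% and 0.479% of cells with no *Trp63* UMI.

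Of the 32 cycling cells without *Trp63*, 5 held UMIs of at least 3 of 4 ciliated cell markers (*Foxj1*, *Dnah5*, *Rsph1*, *Ccdc39*). Over all 469 cells 9 did so, 3, 2 and 4 per library, and they were singled out after their values were seen, so they are described with no test. *Deup1*, which builds the deuterosomes that multiply centrioles, was at 2727, 29.2 and 1518 CPM in these cells, against 54.1, 61.2 and 50.3 CPM in 470, 270 and 561 non-cycling cells with the same markers. *Mcidas*, a regulator that commits cells to the multiciliated fate, was at 499.98, 0 and 513 CPM against 0.797, 0.519 and 1.16 CPM. *Ccno*, a cyclin-like gene of centriole amplification, was at 682, 0 and 491 CPM against 3.35, 4.15 and 3.86 CPM. In library 1 each of the 3 cells held all of *Deup1*, *Mcidas* and *Ccno*, and in library 3 each gene was held by 3 of the 4 cells. These sums stood apart from those of the non-cycling ciliated cells and of the pair in library 2. The 9 cells are counted as cycling by the rule alone, and whether they were dividing was not tested.

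Cycle genes were unevenly expressed in these cells. In libraries 1 and 3 the G2 and M phase genes (63 in all, listed with the cycle genes below) summed to 6068 and 5034 CPM, against 12698 and 12213 CPM in the other cycling cells and 857 and 845 CPM in the non-cycling ciliated cells, and the 54 S phase genes summed to 1409 and 5296 against 3690 and 4054 CPM in the other cycling cells. *Mki67* was at 136 and 120 CPM there, against 987 and 871 CPM in the other cycling cells of those libraries, and *Birc5* was at 22.7 and 65.5 against 284 and 318 CPM. *Top2a* was at 750 and 470 against 1047 and 976 CPM, *Cenpf* at 295 and 328 against 763 and 633 CPM and *Cdk1* at 273 and 131 against 148 and 177 CPM. The 2 cells of library 2 were at 1824 CPM for *Mki67* and 29.2 CPM for *Foxj1*, the master factor of motile cilia, and both carried *Trp63*. Among the other markers, 15 cycling cells held at least 3 of 4 gland markers, 11 at least 3 fibroblast markers, 5 muscle, 1 endothelial and 1 macrophage markers. The same count was not taken in non-cycling cells, and the limits on cells used genes of the gland and fibroblast lists. These numbers therefore do not show that cells of those types were cycling.

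The share of cycling cells with and without *Lrig1* was compared in *Trp63*-positive cells drawn to 5000 UMIs. The rule of 4 of the 5 genes and the *Trp63* UMI were applied to the drawn counts. Of cells with an *Lrig1* UMI, 0.376%, 0.307% and 0.485% were cycling, and of cells without one 1.08%, 0.287% and 1.72%. The mean difference was −0.642 percentage points (SD 0.632), lower in 2 of 3 libraries, with an exact sign-flip permutation p of 0.5 (two-sided), and 3 libraries cannot give a p under 0.25. At full depth the share was lower with *Lrig1* in 3 of 3 libraries (mean difference −0.509 points, exact permutation p = 0.25). The drawn share in library 2 rested on 4 and 7 cycling cells, and that at full depth on 9 and 11. With 3 of the 5 genes enough, the drawn share was lower with *Lrig1* in 3 of 3 libraries (mean difference −0.900 points, SD 0.670, exact permutation p = 0.25).

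The shares were also split by lineage genes. Of these splits, that by *Nkx2-1* alone was planned and the others were added. With a *Krt13* UMI, 1.97% ± 1.13 of *Trp63*-positive cells were cycling, and without one 0.542% ± 0.333, higher with *Krt13* in 3 of 3 libraries (exact permutation p = 0.25, n = 3). With *Nkx2-1* the share was 0.498% ± 0.206 and without it 0.937% ± 0.624, lower in 3 of 3 libraries (exact permutation p = 0.25, n = 3). Both splits turn round the lineage shares given above and add no separate evidence. Those shares used cells called cycling at full depth, and these splits the fewer cells called cycling on drawn counts. Cells with *Krt13* and no *Nkx2-1* cycled at 2.71%, 0.761% and 2.93%, and those with *Nkx2-1* and no *Krt13* at 0.417%, 0.290% and 0.492%. Among the former, cells with *Lrig1* cycled at 1.28%, 0% and 0.790% and cells without it at 3.14%, 1.08% and 3.83%, lower with *Lrig1* in 3 of 3 libraries (exact permutation p = 0.25). The shares with *Lrig1* rest on 2 of 156, 0 of 115 and 5 of 633 cells, and the 95% Wilson interval of the 0% reached 3.23%. The intervals with and without *Lrig1* overlapped in libraries 1 and 2 and were apart in library 3. They cover counting error of cells within a pool and not the spread between pools.

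**Figure D2:**
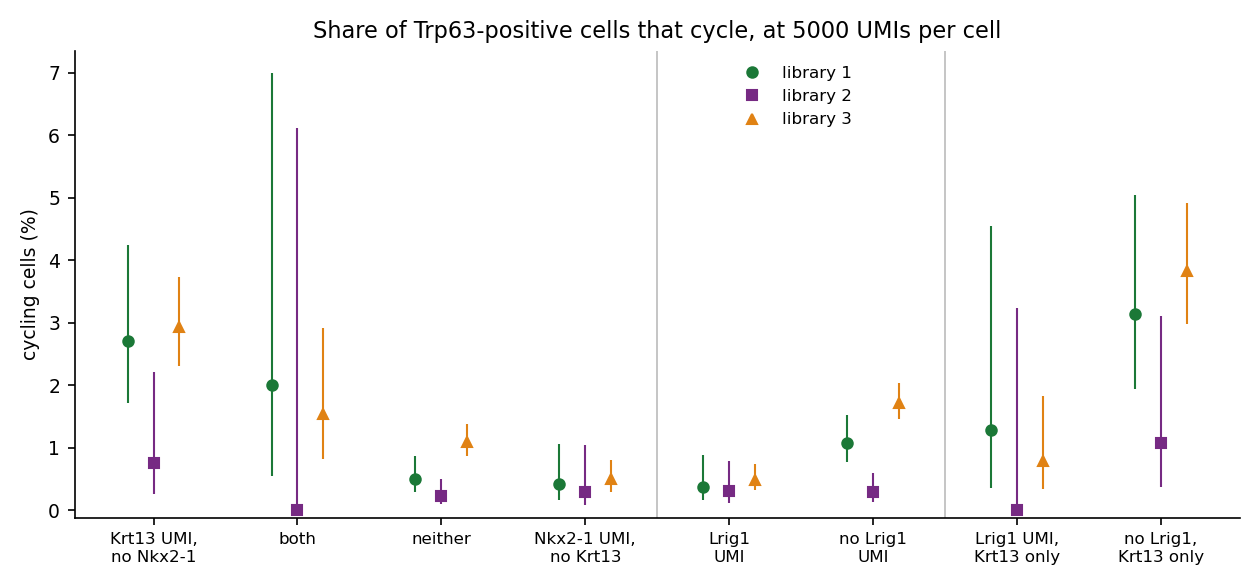
Percent of *Trp63*-positive cells that were cycling (y axis, cells drawn to 5000 UMIs, 1 symbol per library, bars the 95% Wilson intervals), by *Krt13* and *Nkx2-1* (left), by *Lrig1* (middle) and by *Lrig1* within cells with *Krt13* and no *Nkx2-1* (right). Cells were called cycling on the drawn counts. On the left, the classes with *Krt13* were highest in libraries 1 and 3, while library 2 gave the lowest share in every class of the figure.

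Cycle genes other than the 5 were close to what the rule selected on, and their values are given with no test. Set against non-cycling *Trp63*-positive cells, the summed level of 63 G2 and M phase genes was 12498, 13433 and 12315 CPM in cycling cells and 742, 712 and 809 CPM in the others. All 63 were higher in 3 of 3 libraries, beside 21.9% of the 16825 genes tested. *Ccna2*, the cyclin of S phase and G2, was at 168, 195 and 198 against 0.199, 0.121 and 0.491 CPM. *Hmmr*, a spindle protein, was at 298, 266 and 249 against 0.172, 0.256 and 0.600 CPM. The 54 S phase and replication genes summed to 3617, 2931 and 4113 against 759, 786 and 893 CPM. The median log2 fold change was 2.50 for this list and 6.75 for the G2 and M list, beside −0.20 over all genes tested.

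Among regulators, *E2f8* and *E2f7*, the E2F repressors of late S phase, had log2 fold changes of 7.34 and 4.86, *Foxm1* of 5.51 and *Mybl2*, which encodes B-Myb, of 3.89. *Rbl2*, the p130 subunit of DREAM in resting cells, had one of −0.35. The replication-dependent histones summed to 3324, 4188 and 2287 against 298, 389 and 228 CPM. *H1f5*, a linker histone, was at 858, 983 and 656 against 3.95, 5.64 and 3.62 CPM. These messages mostly lack a poly(A) tail, and the kit primes on poly(A), so the levels need not follow the cell's content. *Brca1*, a DNA repair gene, had a log2 fold change of 5.55, and *Stmn1*, a tubulin-binding protein, of 5.00.

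By number of selecting genes from 0 to 5, the G2 and M list went from 742, 712 and 809 CPM to 15724, 18313 and 15335 CPM. *Lrig1* went from 85.2, 94.6 and 97.6 CPM at 0 genes to 36.6, 54.3 and 40.6 CPM at all 5. Library 2, with 20 *Trp63*-positive cycling cells, gave an uneven course. *Notch1*, by contrast, was between 64 and 118 CPM throughout, with no common course in the 3 libraries.

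**Figure D3:**
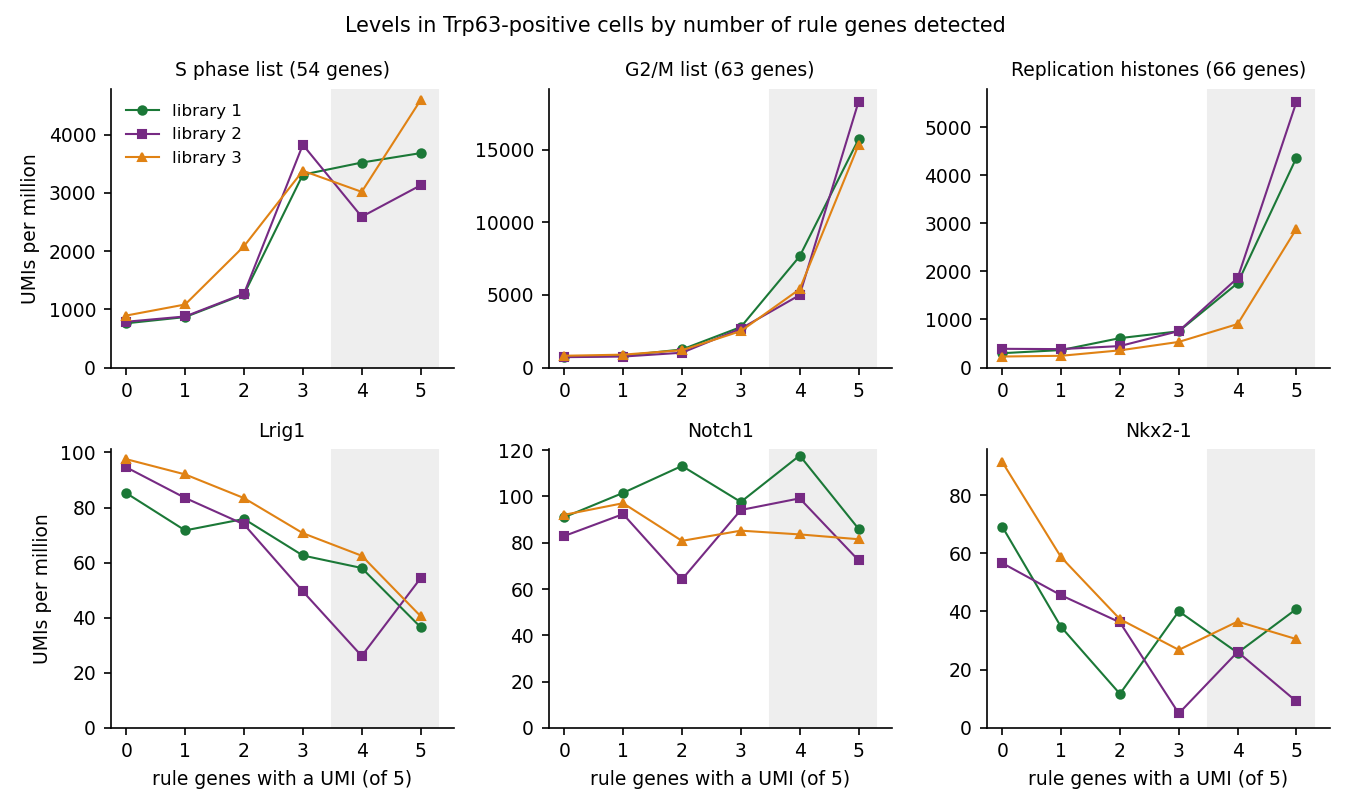
Summed level in CPM (y axes) of 3 cycle lists and of *Lrig1*, *Notch1* and *Nkx2-1* in *Trp63*-positive cells, by how many of the 5 selecting genes had a UMI (x axes), 1 line per library and the cycling cells shaded. The S phase list was already raised at 3 genes, the G2 and M list mainly at 4 and 5, and *Lrig1* was lower at 5 genes than at 0 in every library.

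The cycling cells were also split by genes of late phases. UMIs of all of *Cdc20*, *Plk1* and *Ccnb1*, genes of late G2 and mitosis, were found in 50.7%, 50% and 53.2% of the *Trp63*-positive ones (38, 10 and 182 cells), and none of the 3 in 11, 3 and 44 cells. *Lrig1* was at 31.5, 45.4 and 42.6 CPM in the late cells and 78.1, 71.9 and 54.5 CPM in the early ones, and *Krt13* at 1639, 1311 and 903 against 2975, 3194 and 1843 CPM. In the cells between, with 1 or 2 of the 3 genes, *Lrig1* was at 57.4, 21.5 and 53.2 CPM and *Krt13* at 855, 674 and 713 CPM. *Krt13* was thus lowest in the cells between and followed no order of phase, and *Lrig1* fell in order in libraries 1 and 3 but not in library 2. Depth bears on these classes, with median UMIs of 25610.5, 31311 and 26606.5 in the late cells and 17523, 31637 and 20799 in the early ones. With 3 early cells in library 2, no test was run.

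Across all genes, cycling *Trp63*-positive cells (75, 20 and 342 per library) were compared with non-cycling ones (5806, 4345 and 12911) on UMI sums per library, with the library as a block (edgeR quasi-likelihood test, Benjamini-Hochberg over 16825 genes, threshold 0.05). 6482 genes passed, 38.5% of those tested, 2588 higher (15.4%) and 3894 lower (23.1%) in cycling cells. Leaving out library 1, 2 or 3 gave 3258, 7006 and 4096 genes (19.3%, 40.6% and 24.2%), with 10.7%, 21.7% and 10.9% of genes higher and 8.64%, 18.9% and 13.3% lower. List counts without a library are to be read against these shares, as they move with the number of calls. The share of calls that were higher was 39.9%, 49.3% with DESeq2, and 53.9% with non-cycling cells picked to match the UMIs of the cycling cells. The median log2 fold change of all genes was −0.20 and list medians should be read against it. Since *Krt13* was found more often in cycling cells, lists that moved with lineage are also given for cells with *Krt13* and no *Nkx2-1* in both classes, with the non-cycling cells picked to match depth (called below the squamous comparison at equal depth, in which 25.4% of 11296 genes passed, 14.6% higher and 10.8% lower). It rests on 40, 10 and 176 cycling cells and 200, 30 and 352 non-cycling cells. The name refers to a *Krt13* UMI without *Nkx2-1*, and does not show that the non-cycling cells were squamous. At full depth, *Krt13* was found in 23.4%, 20.4% and 34.6% of non-cycling *Trp63*-positive cells. In endothelial barcodes, which held fewer UMIs, the shares were 12.8%, 13.8% and 18%. How many of the non-cycling cells held background *Krt13* was not tested, so the classes need not match in lineage.

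Markers of other cell types moved with the classes. The 6 fibroblast markers summed to 154, 19.1 and 149 CPM in cycling and 993, 356 and 725 CPM in non-cycling *Trp63*-positive cells. *Col1a1* was at 0 in the cycling cells of library 1, and 5 of the 6 were at 0 in those of library 2, where *Dcn* alone was found. The 4 gland markers summed to 345, 72.7 and 68.8 against 1077, 664 and 669 CPM. The limits on cells used *Dcn* of the fibroblast list and *Ltf* and *Scgb3a1* of the gland list, so these sums are not independent of the selection. Endothelial markers were at 7.74, 5.74 and 4.44 against 92.1, 3.48 and 4.40 CPM, and macrophage markers at 0, 0 and 2.96 against 31.4, 7.70 and 8.0 CPM. Muscle, neuroendocrine and pericyte markers were also lower in each library, at no more than 18.8 CPM in cycling cells. The 4 cartilage markers summed to 33.6, 24.9 and 26.8 against 21.6, 10.9 and 13.4 CPM, with *Acan* and *Col2a1* at 0 in the cycling cells of every library. Ciliated markers were at 155, 99.4 and 11.7 against 54.01, 25.6 and 29.6 CPM, where 1, 2 and 1 of the cycling cells held at least 3 of the 4. T cell and erythroid markers were under 4 CPM in both classes. The part of these cells in the genes that changed was not tested.

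**Figure D4:**
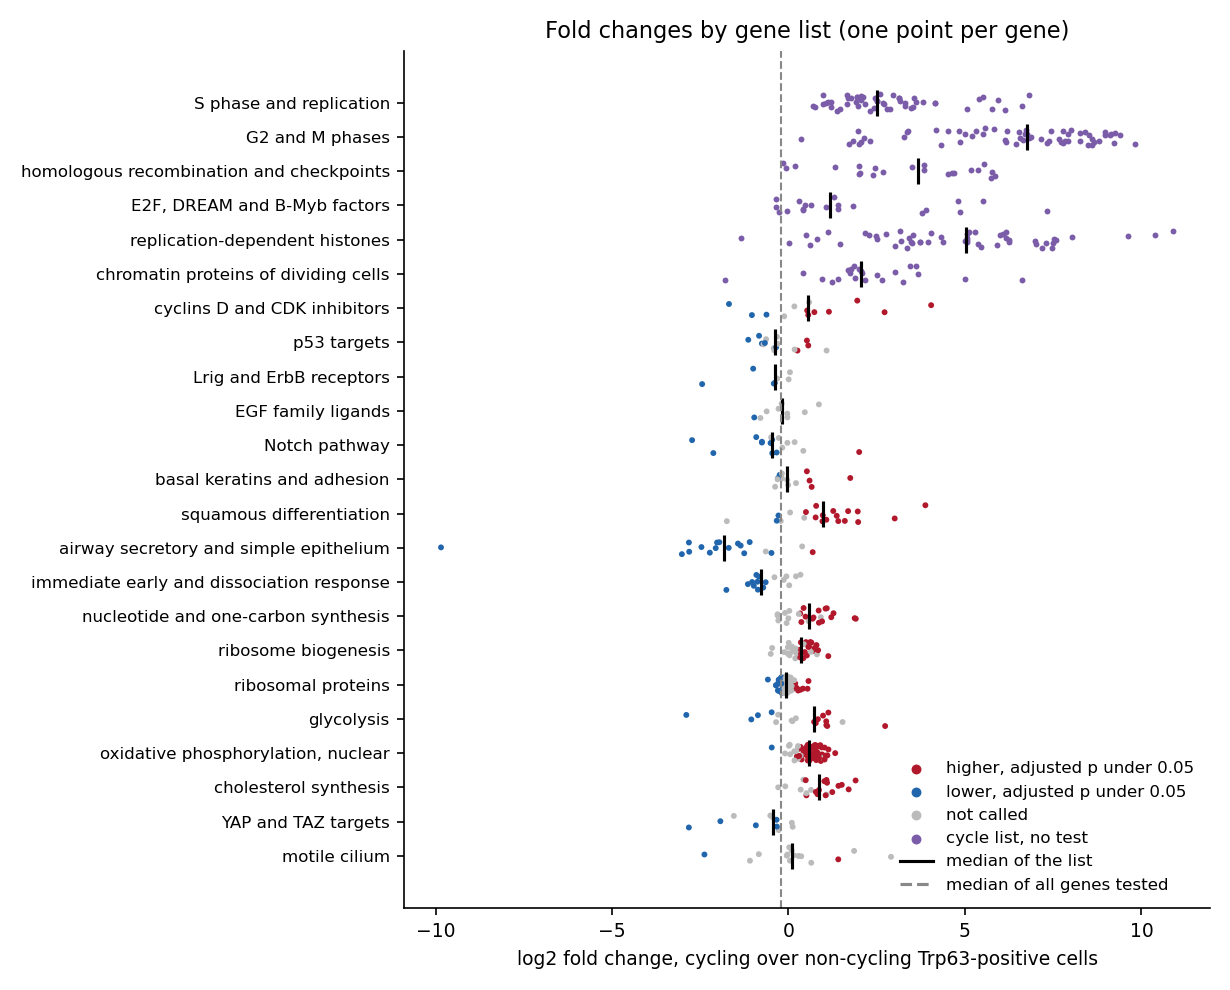
Log2 fold change of cycling over non-cycling *Trp63*-positive cells (x axis) for each gene of 23 lists (rows, 1 point per gene, vertical bar the median of the list, dashed line the median of all genes tested, −0.20). Cycle lists (purple) carry no test; oxidative phosphorylation lay mostly to the right and airway secretory genes to the left, and the leftmost point is *Spdef*, which had no UMI in cycling cells, so that its fitted value is no measure of size.

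*Lrig1*, which encodes a receptor that damps growth factor signals and marks the sorted lineage, was at 45.2, 44.0 and 47.2 CPM in cycling cells and 85.2, 94.6 and 97.6 CPM in non-cycling ones. The groups did not overlap. The log2 fold change was −1.0 (SE 0.11, edgeR adjusted p = 6.98e-07, lower in 3 of 3 libraries). It ranged from −1.28 to −0.79 over 19 fits, each past the threshold, and was −1.21 in the squamous comparison at equal depth. *Lrig1* lies on chromosome 6 at 94581510 to 94677242 (GRCm39, minus strand). The cycling sums rest on 70, 23 and 383 *Lrig1* UMIs, and 42 of 75, 11 of 20 and 166 of 342 cycling cells held none.

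Of the 7 Lrig and ErbB receptors, 4 fell and none rose, with a median of −0.39 (2 fell without library 1 and 2 without library 3). *Erbb4*, a neuregulin receptor, was at 11, 0 and 3.82 against 47.7, 26.3 and 21.4 CPM and fell. *Egfr*, the receptor for EGF, was at 316, 252 and 229 against 365, 320 and 346 CPM (log2 fold change −0.39, adjusted p = 0.00394), and without library 1 or library 3 the adjusted p was 0.21 and 0.20. With cells picked to match depth, its log2 fold change was −0.12. *Lrig3* (0.04) and *Erbb3* (0.01) did not pass. Of 9 EGF family ligands tested, *Nrg2* alone passed (37.4, 38.2 and 40.0 against 77.0, 84.1 and 75.1 CPM, log2 fold change −0.97), and *Tgfa* was at 22.6, 22.9 and 17.9 against 25.5, 23.6 and 21.7 CPM.

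Notch receptors pass a signal from cell to neighbour, and in the stratified larynx the pathway is known for its part in differentiation. *Notch1* was at 98.7, 82.2 and 82.2 CPM in cycling and 91.0, 82.9 and 92.1 CPM in non-cycling cells, and the groups overlapped (log2 fold change −0.03, SE 0.10, edgeR adjusted p = 0.846). Over the alternatives its log2 fold change lay between −0.16 and 0.13. Of 16 pathway genes tested, 9 fell and 1 rose, with a median of −0.46. Without library 1 the falls were 3 and without library 3 they were 4. *Hes1*, a target gene and repressor, was at 132, 119 and 139 against 243, 245 and 257 CPM (log2 fold change −0.91, adjusted p = 6.67e-07). *Hey1*, a target of the same family, was at 3.23, 3.82 and 5.06 against 15.6, 13.4 and 22.6 CPM (log2 fold change −2.13, adjusted p = 7.03e-06). *Nrarp*, a target that limits the pathway, went the other way, at 27.7, 17.2 and 20.7 against 5.35, 4.35 and 6.49 CPM (log2 fold change 2.00, adjusted p = 4.01e-05).

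In the squamous comparison at equal depth 3 of the 14 Notch genes tested fell and 1 rose. *Hes1* (−0.65) and *Hey1* (−2.76) were among those that fell. *Nrarp* was at 0.76 there, close to the threshold (adjusted p = 0.04996). *Dll1*, a ligand, was at 17.4, 13.4 and 14.4 against 28.4, 23.0 and 25.2 CPM and passed in all cells (log2 fold change −0.75, adjusted p = 0.00309), but its adjusted p was 0.17 without library 1 and 0.088 without library 3. With cells picked to match depth, its log2 fold change was −0.42 (edgeR adjusted p = 0.106).

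**Figure D5:**
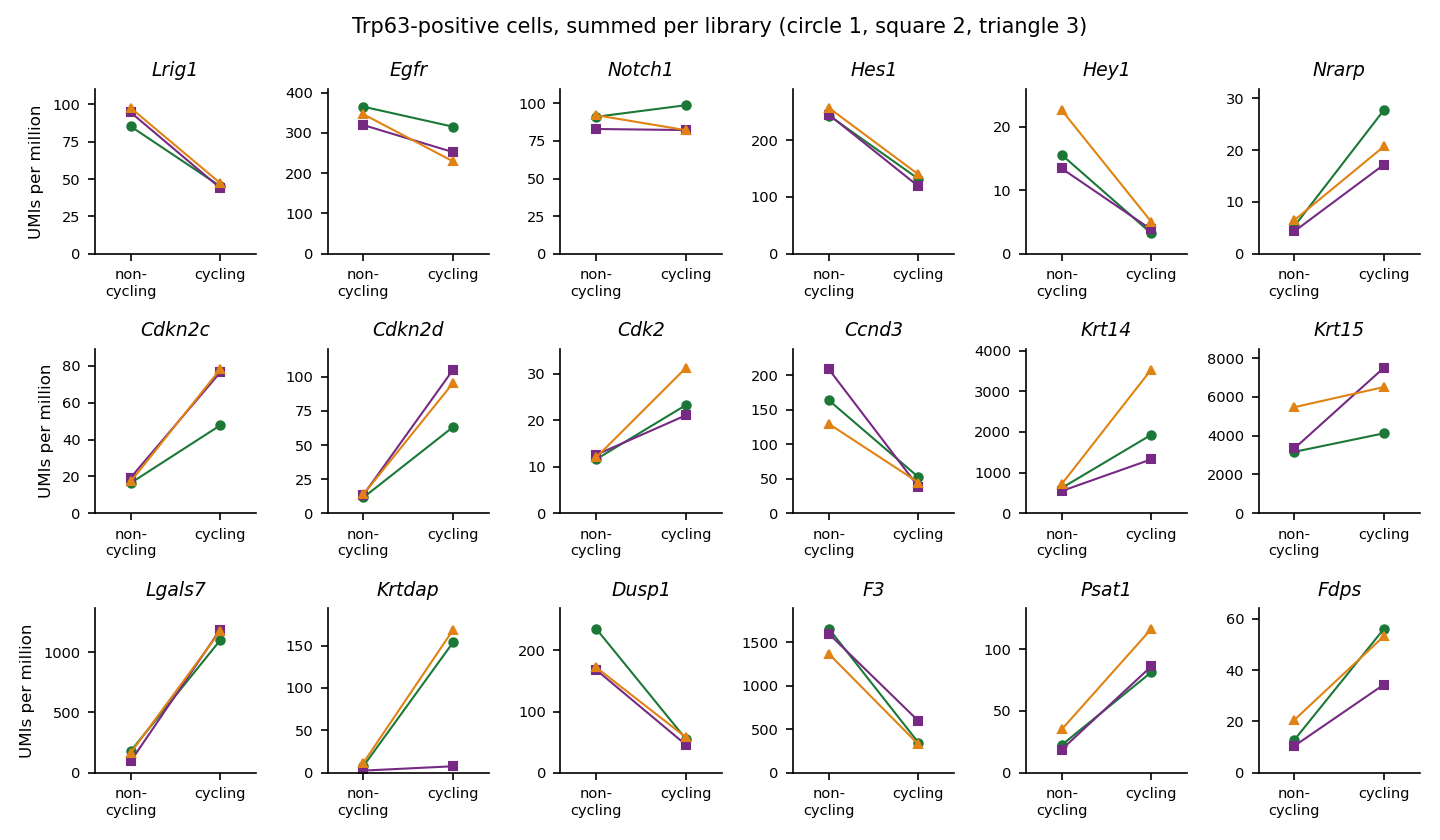
Summed level in CPM (y axes, from 0) of 18 genes in non-cycling and cycling *Trp63*-positive cells, with a line joining the classes of each library (circle 1, square 2, triangle 3). *Lrig1*, *Hes1*, *Hey1*, *Ccnd3*, *Dusp1* and *F3* were lower in cycling cells in each library, *Notch1* crossed, and the rise of *Krtdap* was small in library 2.

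Among regulators of the G1 to S step, rises were more frequent than over all genes and falls were not. Of 13 D-type cyclins, their kinases and kinase inhibitors, 7 rose and 3 fell, with a median of 0.56 (5 and 1 without library 1). Over all genes 15.4% were higher and 23.1% lower. *Cdkn2d*, which encodes the p19 inhibitor of CDK4 and CDK6, was at 63.2, 105 and 95.5 against 11.6, 13.6 and 14 CPM (log2 fold change 2.72, adjusted p = 6.70e-12). *Cdkn2c*, the p18 inhibitor, was at 47.7, 76.5 and 78.2 against 16.4, 19.4 and 17.2 CPM (log2 fold change 1.95). *Ccnd3*, cyclin D3, fell, at 52.3, 38.2 and 44.5 against 164, 208 and 129 CPM (log2 fold change −1.69, adjusted p = 9.64e-10). These 3 genes passed in all 19 fits. *Cdk2* rose by 1.15 on the log2 scale, with an adjusted p of 0.073 without library 3.

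Of 16 p53 targets 3 rose and 5 fell, with a median of −0.37 (1 and 2 without library 1), shares close to the 15.4% higher and 23.1% lower over all genes. *Btg2*, an antiproliferative gene, was at 117, 89.9 and 106 against 282, 281 and 184 CPM (log2 fold change −1.14, adjusted p = 1.00e-06). *Plk2*, a stress-induced kinase, was at 17.4, 15.3 and 13.0 against 31.2, 31.2 and 22.7 CPM, and its adjusted p rose from 0.00105 to 0.092 without library 1. *Cdkn1a*, the p21 inhibitor and a member of both lists, rose by 0.56.

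The basal keratins did not move as 1 group. Of 13 basal keratin and adhesion genes tested, 4 rose and 2 fell, with a median of −0.04 (4 and 0 without library 1, 5 and 0 without library 2, 4 and 1 without library 3). *Krt14*, a keratin of the basal layer, was at 1929, 1325 and 3532 against 620, 546 and 716 CPM (log2 fold change 1.75, adjusted p = 2.20e-09) and passed in all 19 fits. *Krt15* was at 4124, 7507 and 6509.9 against 3168, 3346 and 5471 CPM (log2 fold change 0.60), and in the squamous comparison at equal depth its log2 fold change was 0.05. *Krt17*, at 788, 520 and 1734 against 561, 440 and 1009 CPM, rose by 0.52 in all cells, and the sign turned to −0.56 in that comparison.

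Squamous differentiation genes were higher and airway genes lower, the direction of the lineage shares given above. Of 21 squamous genes 15 rose and 2 fell, with a median of 0.97 (12 and 0 without library 1, 15 and 1 without library 2, 12 and 1 without library 3). *Lgals7*, galectin-7 of stratified epithelia, was at 1099.5, 1188 and 1175 against 180, 95.7 and 166 CPM (log2 fold change 3.01, adjusted p = 9.22e-13). *Krtdap*, a keratinocyte differentiation gene, was at 154, 7.65 and 168 against 7.92, 2.56 and 11.9 CPM (log2 fold change 3.88). *Sprr1a*, of the cornified envelope, rose by 1.96. In the squamous comparison at equal depth 3 of 18 rose and 3 fell, with a median of 0.01. *Lgals7* (1.60) and *Krtdap* (1.95) rose there too, and *Sprr1a* was at 0.20 (adjusted p = 0.373).

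Of 18 airway secretory and simple epithelial genes 15 fell and 1 rose, with a median of −1.83. *Dmbt1*, a mucosal defence gene of glands, was at 7.10, 1.91 and 4.32 against 40.6, 26.5 and 40.1 CPM (log2 fold change −3.02). *Scgb1a1*, the club cell secretoglobin, was at 32.9, 5.74 and 7.77 against 174, 135 and 35.2 CPM (log2 fold change −2.47), and its value in the squamous comparison at equal depth was 0.24 (adjusted p = 0.599). *Krt8*, a simple epithelial keratin, was the 1 that rose (0.69). In that comparison 10 of 14 genes still fell and none rose.

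Oxidative phosphorylation genes rose widely. Of 75 nuclear genes of oxidative phosphorylation tested 62 rose and 1 fell, and 70 were higher in 3 of 3 libraries, with a median of 0.59. Their summed level was 17413, 19513 and 18589 against 11476, 12244 and 12717 CPM. *Atp5o*, a subunit of ATP synthase, was at 314, 323 and 344 against 140, 147 and 171 CPM (log2 fold change 1.10, adjusted p = 1.65e-08). *Cox5a*, of cytochrome c oxidase, was at 306, 319 and 439 against 151, 150 and 211 CPM (log2 fold change 1.06). In the squamous comparison at equal depth 57 of 74 rose and 1 fell, beside 14.6% of all genes higher. The mitochondrial share of UMIs had a median of 2.79%, 2.55% and 2.36% in all cycling cells, against 3.24%, 3.07% and 2.99% in non-cycling *Trp63*-positive cells.

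Of 19 glycolysis features 9 rose and 4 fell, with a median of 0.73 (9 and 1 without library 1, 9 and 2 without library 3). The falls were near the 23.1% lower over all genes, and the rises were above the 15.4% higher. *Gapdh* was at 905, 970 and 1201 against 440, 471 and 522 CPM (log2 fold change 1.10), while *Aldoc* (−2.89) and *Pfkm* (−1.05), isoforms known from brain and muscle, were among those that fell. *Slc16a1*, a lactate carrier, was at 20, 7.65 and 26.4 against 4.28, 1.72 and 2.45 CPM (log2 fold change 2.74, and 1.88 in the squamous comparison at equal depth).

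Of 25 nucleotide and one-carbon synthesis genes 15 rose and none fell, with a median of 0.57 (7 rose without library 3). *Psat1*, of serine synthesis, was at 81.3, 86.1 and 116 against 22.5, 18.8 and 35.0 CPM (log2 fold change 1.88, adjusted p = 3.24e-10), and *Phgdh*, the first enzyme of that route, at 49.0, 74.6 and 87.2 against 27.7, 25.6 and 35.6 CPM (log2 fold change 1.21). *Mthfd2*, of mitochondrial one-carbon metabolism, was at 16.1, 7.65 and 26.9 against 4.73, 3.51 and 5.41 CPM, and its adjusted p was 0.078 without library 3. In the squamous comparison at equal depth 13 of 25 rose and none fell, with *Psat1* at 1.21.

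Of 36 ribosome biogenesis genes 18 rose and none fell, with a median of 0.35. The rises were 11, 29 and 8 without library 1, 2 and 3, beside 10.7%, 21.7% and 10.9% of all genes higher. In the squamous comparison at equal depth they were 7, near the 14.6% of all genes higher there. *Nhp2*, a protein of pseudouridine-forming particles, was at 100, 78.4 and 121 against 44.4, 51.1 and 49.5 CPM (log2 fold change 1.13). For the 78 ribosomal proteins tested, 8 rose and 15 fell with a median of −0.06, and with doublets removed 22 rose and 2 fell (beside 20.6% and 17.1% of all genes), so no direction is given.

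Of 21 cholesterol synthesis genes 14 rose and none fell, with a median of 0.86 (9 rose without library 3). *Fdps*, of the isoprenoid route, was at 56.1, 34.4 and 53.3 against 12.8, 10.5 and 20.6 CPM (log2 fold change 1.71, adjusted p = 1.49e-07, and 1.01 in the squamous comparison at equal depth). *Idi1* was at 37.4, 5.74 and 49.1 against 8.09, 5.34 and 12.4 CPM and rose by 1.90, with little difference in library 2. Of the 19 genes tested in the squamous comparison at equal depth, 5 rose.

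Immediate early genes, which dissociation of tissue is known to induce, were lower. Of 16 tested 10 fell and none rose, with a median of −0.78, and 10 fell in the squamous comparison at equal depth. Without library 1 the falls were 6, and without library 2 there were 9 falls and 2 rises. *Dusp1*, a phosphatase of MAP kinases, was at 55.5, 45.9 and 58.1 against 235, 168 and 172 CPM (log2 fold change −1.76, adjusted p = 2.17e-10). *Fos* was at 42.6, 34.4 and 56.9 against 117, 286 and 77.4 CPM (log2 fold change −1.15), and with DESeq2 its adjusted p was 0.0757. Without library 2, where non-cycling cells were highest, *Fos* was at −0.61 and *Jun* at −0.54 in place of −0.98, and without library 3 *Fos* was at −2.04.

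Of 11 targets of YAP and TAZ, factors of cell contact and tension, 5 fell and none rose, with a median of −0.45 (3 fell without library 1 and 3 without library 2). *F3*, tissue factor, was at 345, 595 and 325 against 1654, 1596 and 1364 CPM (log2 fold change −1.93, adjusted p = 6.27e-11). *Ccn2* was at 41.9, 17.2 and 4.56 against 283, 179 and 29.9 CPM (log2 fold change −2.82). *Ccn1*, the other matricellular target, was at 7.74, 11.5 and 7.77 against 18.7, 27.2 and 7.02 CPM and did not pass (log2 fold change −0.51), but without library 3 its log2 fold change was −1.25 (adjusted p = 0.0065). In the squamous comparison at equal depth 2 of 10 fell, *F3* by 1.25 on the log2 scale.

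Of 15 motile cilium genes 1 rose and 1 fell, and single libraries set the values, with 9 rises without library 3 and none without library 1. Of the *Trp63*-positive cycling cells, 1, 2 and 1 per library held at least 3 ciliated markers. All 94 *Deup1* UMIs of library 1 came from the 1 such cell there. *Rsph1*, a radial spoke gene and one of the ciliated markers, was at 58.7, 22.9 and 7.65 against 10.4, 6.08 and 7.85 CPM, with an adjusted p of 0.0064 and of 0.27 without library 1.

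The 10 largest rises outside the cycle lists are given as values, since they too lie close to what the rule selected on. *Aspm*, a spindle pole protein, was at 216, 310 and 209 against 0.398, 0.538 and 0.496 CPM (log2 fold change 8.94). *Neil3*, a DNA glycosylase, was at 112, 107 and 83 against 0.0928, 0.0404 and 0.240 CPM, and *Mxd3*, of the MYC network, at 28.4, 61.2 and 43.1 against 0.0663, 0.0269 and 0.120 CPM. The others were *Iqgap3*, *Depdc1a*, *Pimreg*, *Pif1*, *Sapcd2*, *Pbk* and *Ska1*, with log2 fold changes from 8.84 to 9.42.

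The 10 largest falls are given in turn. *Tll1*, a tolloid protease, was at 3.87, 1.91 and 1.97 against 136, 97.6 and 52.3 CPM (log2 fold change −4.89). *Aox3*, an aldehyde oxidase, was at 39.4, 15.3 and 19.4 against 498, 464 and 285 CPM (log2 fold change −3.91) and also fell in the squamous comparison at equal depth (−2.56). *Pcdh9*, a protocadherin, was at 12.3, 5.74 and 15.4 against 372, 270 and 193 CPM (log2 fold change −4.12), and its value in that comparison was −1.30 (adjusted p = 0.181). *Trf*, *Penk*, *Ogn*, *Bmp5*, *Mdga2* and *Kcnip4* had no UMI in the cycling cells of library 2, where 3 UMIs correspond to 5.74 CPM. In the non-cycling cells of library 2 they were at 23.2, 3.12, 13.0, 14.3, 17.3 and 68.6 CPM in that order. The absence of *Penk* there is thus uninformative. Over the libraries *Penk* was at 1.94, 0 and 0.370 against 48.8, 3.12 and 6.10 CPM, so its fall rests largely on library 1. *Nkain3* was at 0, 7.65 and 0.864 against 32.7, 11.5 and 23.7 CPM, and with no upper limit on UMIs its adjusted p was 0.061.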

How the data were processed

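The authors aligned the reads to GRCm39 (mm39) with Cell Ranger 8.0.1 and deposited UMI counts per gene and barcode, not normalized, for 33696 features and 3 libraries of tdTomato-sorted cells. The kept cells held 140984175, 108065324 and 284185194 UMIs, the cycling cells 1569888, 547318 and 8414255. The limits on cells are those given above, which set at most 8000 genes and 40000 UMIs. The cells and gene lists were chosen with earlier results of these data known. Counts were summed per library and class and fitted with edgeR 4.0.16 in R 4.3.3 (TMM, filterByExpr, library as block). The numbers pair the sums because each library gives both classes from 1 pool, and their deviations correlated at 0.116, 0.142 and 0.131. The 5 selecting genes and *Trp63* were left out of the fit, and *Krt5*, *Ltf*, *Scgb3a1* and *Dcn*, which the limits used, out of the list counts. CPM are UMIs per 1e6 of the summed UMIs. Shares were recomputed after drawing each cell to 5000 UMIs without replacement, and cells below that were left out. For shares of cells that cycle, the rule was applied to the drawn counts. For lineage shares, the cells were chosen at full depth. For fits at equal depth, whole non-cycling cells were picked at random, with no UMI removed, to match the distribution of UMIs per cell of the cycling cells of the same library, which kept 750, 140 and 1026 of 5806, 4345 and 12911 (200, 30 and 352 in cells with *Krt13* and no *Nkx2-1*). Doublets were scored with Scrublet in scanpy 1.11.5, and the highest scores were marked at 0.4% per 1000 barcodes, without removing them from the main comparison. Motifs were counted in RefSeq promoters of GRCm38.p6. Genes were named by rule: the 2 to 4 largest changes of each list and the 10 largest rises and falls at a mean of at least 10 CPM, with *Lrig1* and *Notch1* always; others named in a list were added after their values were seen. Alternatives were DESeq2 1.42.0, RLE size factors, no filter, no block, other thresholds of the cell rule, doublets removed and each replicate left out. A further 5 were added after the data were seen, among them the comparisons within cells with *Krt13* and no *Nkx2-1*. The fit was tested on simulated data. P-values rest on how the difference between classes inside a library varied over 3 pools. In the edgeR and DESeq2 fits the estimate of spread is shared across genes.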

Additional observations from a re-analysis of the deposited data

Results flagged for a closer look

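Barcodes left out by the limits also held the selecting genes. Of 1879 barcodes over 40000 UMIs, 418 held UMIs of at least 4 of the 5 selecting genes, which is 22.2% (95% Wilson interval 20.4% to 24.2%), against 3.32% of kept cells between 20000 and 40000 UMIs. By library the shares were 8.01%, 6.0% and 37.6%. Of 8360 barcodes left out for UMIs of all of *Krt5*, *Ltf*, *Scgb3a1* and *Dcn*, 114 did so, which is 1.36% (1.14% to 1.64%), against 1.14% of kept cells. By library these were 0.820%, 0.518% and 1.56%, against 0.638%, 0.294% and 1.72% of kept cells, so library 3 went the other way. These values drew attention because they lie outside the cells of the comparisons above; both kinds of barcode enter only alternatives of the fit. The 469 cells described are therefore only some of the deposited barcodes with these genes.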

How the results depend on the processing

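The count of genes past the threshold was 6482. It was 5696 without the replicate block, 5045 with DESeq2, 6329 with RLE size factors and 3258 to 7006 when 1 replicate was left out. It was 4010 in cells with *Krt13* and no *Nkx2-1*, and 2869 with cells matched for depth as well, in fewer cells and fewer genes tested. With 2 UMIs asked for, the lineage shares were 86.7% for *Trp63*, 48.4% for *Krt13* and 13.5% for *Nkx2-1*, and drawn to 5000 UMIs they were 86.0%, 47.4% and 13.5%. Of 113 named genes, 82 kept their direction and their side of the threshold in every fit that gave a value. A further 23 crossed the threshold and 8 changed sign. The 82 include all named genes of the cycle lists and the largest rises, which lie close to what the rule selected on. Their stability follows from the selection, and the stable share of the other named genes is lower than 82 of 113. In the squamous comparison at equal depth the log2 fold change was 0.27 for *Ccn1*, 0.24 for *Scgb1a1* and −0.56 for *Krt17*, which was −0.20 without matching depth. Leaving out 1 replicate gave −0.37 to 4.93 for *Deup1*, −1.52 to 1.75 for *Foxj1*, −1.77 to 1.56 for *Hydin*, −1.02 to 0.052 for *Nrg1* and 0.023 to 0.12 for *Notch1*. With no upper limit on UMIs *Foxj1* was at −0.74 and *Hydin* at −1.04, and *Hydin* was at −0.39 with DESeq2 and −0.41 with cells matched for depth. With cells matched for depth and without replicate 2, *Hydin* was at −2.46, *Ccn1* at 0.058, *Nrg1* at 0.058 and *Notch1* at 0.10. *Notch1*, never past the threshold, was also at 0.030 with DESeq2, 0.024 with RLE size factors, 0.0059 with no filter, 0.090 with cells matched for depth, 0.13 with doublets removed, 0.038 with 3 selecting genes, 0.034 with 2 *Trp63* UMIs and 0.055 with mixed barcodes kept. The cause was not tested. The no-block fit changed the call of 9 of the 113 genes. The comparison in *Col1a2*-positive cells and its interaction with lineage could not be fitted for want of cycling cells. Late against early cells was not run, since the minimum of 20 cells per library and class set for it was not met. Library 2, with 20 *Trp63*-positive cycling cells, limits what could be detected.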
